A study of Mus musculus with 22 samples.

Results

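Multiciliated cells are the airway cells that carry many motile cilia and move mucus along the airway surface. The genes described here are 10 regulators that act when a progenitor becomes such a cell, before or while the basal bodies of its cilia are built. They were chosen by gene symbol (Mcidas, Gmnc, Ccno, Foxn4, Deup1, Cdc20b, Trp73, Hes6, Myb and Foxj1), with earlier results of the same libraries known. All 10 were among the 54532 genes of the deposited table, and all 10 were among the 16638 genes that passed the filter on low counts. That filter can be passed through 1 group in which a gene is high, so passing it supports nothing.

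RNA from whole lung of young male C57BL6/j mice was sequenced in 22 libraries after 8 days. The mice breathed normal air (normoxia) or air low in oxygen (hypoxia), and received vehicle or ABT-263 at 50 mg/kg/day. ABT-263, also called navitoclax, blocks pro-survival proteins of the BCL-2 family and is used as a senolytic, a drug meant to clear senescent cells. The 4 groups were normoxia with vehicle (5 libraries, the control), normoxia with ABT-263 (6), hypoxia with vehicle (6) and hypoxia with ABT-263 (5), with no engineered allele named in the labels. The labels do not give the oxygen level or the exact age, and they do not say whether each library is a separate mouse.

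Titles and treatment tags disagree for 3 libraries, each of them replicate 1 of its group. The normoxia and the hypoxia library titled ABT-263 are tagged vehicle, and the hypoxia library titled vehicle is tagged ABT-263. Groups follow the titles here, and values without these libraries or with the tags are given where they move a result. Library totals ran from 11509007 to 15744193 expected counts. Levels are expected counts scaled to library size (CPM), with TMM factors between libraries. Log2 fold changes carry the standard error (SE) of edgeR's fit. Whole lung mixes many cell types, so more cells of a type and more RNA per cell cannot be told apart. The p-values measure only the spread between these libraries, which may be technical. The tissue label was read against markers of alveolar type 2 cells, the surfactant-making cells of the lung, whose 8 genes summed to 37097 to 51147 CPM over the 22 libraries.

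As background, commitment to the multiciliated fate is held back by Notch signalling and starts with the geminin-related coactivators Gmnc and Mcidas. These lack DNA-binding domains and work with E2F4 or E2F5 and their DP partners. They switch on transcription factors such as Trp73, Myb and Foxj1, and genes for the deuterosome, a structure found in differentiating multiciliated cells on which centrioles are made in large numbers. Deuterosome genes are known for brief expression during differentiation, whereas Foxj1 and the genes of the ciliary axoneme stay on in mature cells.

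Ccno, Mcidas and Cdc20b are neighbours on the same strand of mouse chromosome 13, and with Deup1 they were high in the same libraries, so stretches just upstream of such genes are shown. The stretches come from the RefSeq promoter table (GRCm38.p6), are written 5′ to 3′ on the strand of the gene, and leave out every annotated exon. Capitals mark a match to the RFX motif GTTGCC or to the E2F core TTCCCGC. The Ccno stretch is chr13:112987552-112987801, the Mcidas stretch chr13:112993618-112993844 (both plus strand) and the Deup1 stretch chr9:15627934-15628096 (minus strand).
Ccno: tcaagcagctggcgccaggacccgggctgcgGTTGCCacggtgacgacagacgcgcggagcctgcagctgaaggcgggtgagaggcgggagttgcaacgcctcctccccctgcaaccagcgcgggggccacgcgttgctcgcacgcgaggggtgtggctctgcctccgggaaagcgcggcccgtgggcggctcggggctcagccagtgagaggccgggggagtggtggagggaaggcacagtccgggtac
Mcidas: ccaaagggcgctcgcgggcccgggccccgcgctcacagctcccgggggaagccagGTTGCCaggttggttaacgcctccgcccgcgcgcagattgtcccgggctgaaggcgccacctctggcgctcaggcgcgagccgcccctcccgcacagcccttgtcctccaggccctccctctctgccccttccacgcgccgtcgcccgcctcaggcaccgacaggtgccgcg
Deup1: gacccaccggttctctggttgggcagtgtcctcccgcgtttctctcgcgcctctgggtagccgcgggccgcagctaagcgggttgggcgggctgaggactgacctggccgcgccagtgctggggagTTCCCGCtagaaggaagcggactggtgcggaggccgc
The RFX match began 219 bases before the RefSeq start in Ccno and 195 bases before it in Mcidas, and the E2F match began 124 bases before a start of Deup1. Both strands of windows from 250 bases before to 50 bases after each start were searched. The RFX motif was in the windows of 4 of the 9 genes found in the table (Trp73, Deup1, Ccno and Mcidas), against 14.1% of all 27025 genes there. The E2F core was in 3 of 9 (Trp73, Deup1 and Cdc20b), against 5.29% of genes. The forkhead core GTAAACA was in 1 of 9 (Myb), against 4.05%. These searches describe letters in a window and do not show binding.

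Cdc20b also hosts microRNAs of the miR-449 family, whose shared seed (bases 2 to 8, in capitals) is part of the known biology of this locus. They are shown because they lie inside a gene that was high in the same libraries, and the mRNA libraries did not measure mature microRNAs.
miR-449a-5p: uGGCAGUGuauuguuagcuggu
miR-449c-5p: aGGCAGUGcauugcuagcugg
The mature sequences, from RefSeq, lie at chr13:113037549-113037570 and chr13:113036008-113036028 on the plus strand.

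In the control lungs the regulators covered a wide range of levels. Per kilobase of merged exons, Foxj1 was highest at 64.2 ± 12.1 CPM per kb (SD, n = 5), followed by Hes6 at 22.4 ± 2.97 and Myb at 3.09 ± 0.32. Deup1 (2.37 ± 0.47), Trp73 (2.20 ± 0.23) and Ccno (1.97 ± 0.54) overlapped in their ranges, and Gmnc stood below them at 1.06 ± 0.14 CPM per kb. Mcidas (0.413 ± 0.23), Foxn4 (0.328 ± 0.085) and Cdc20b (0.273 ± 0.052) were lowest and also overlapped with each other. The ranges of Foxj1, Hes6 and Myb did not overlap with each other, but that of Myb (2.72 to 3.40) overlapped with that of Deup1 (1.79 to 2.92). Cdc20b rested on 6 to 9 expected counts per control library and Mcidas on 5 to 26, so counting error alone is large for both.

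The 5 genes Mcidas, Foxn4, Ccno, Deup1 and Cdc20b, had their 5 highest values in one and the same set of libraries: replicates 1, 2 and 6 of normoxia ABT-263 and replicates 1 and 4 of hypoxia ABT-263. The other 17 libraries, 6 of them from ABT-263 mice, were at or near control levels for these genes. This pattern within the ABT-263 groups is a description of the libraries and was not tested. Replicate 1 of both groups is among the libraries whose title and tag disagree, while the other 3 of the 5 have ABT-263 in both.

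**Figure D1:**
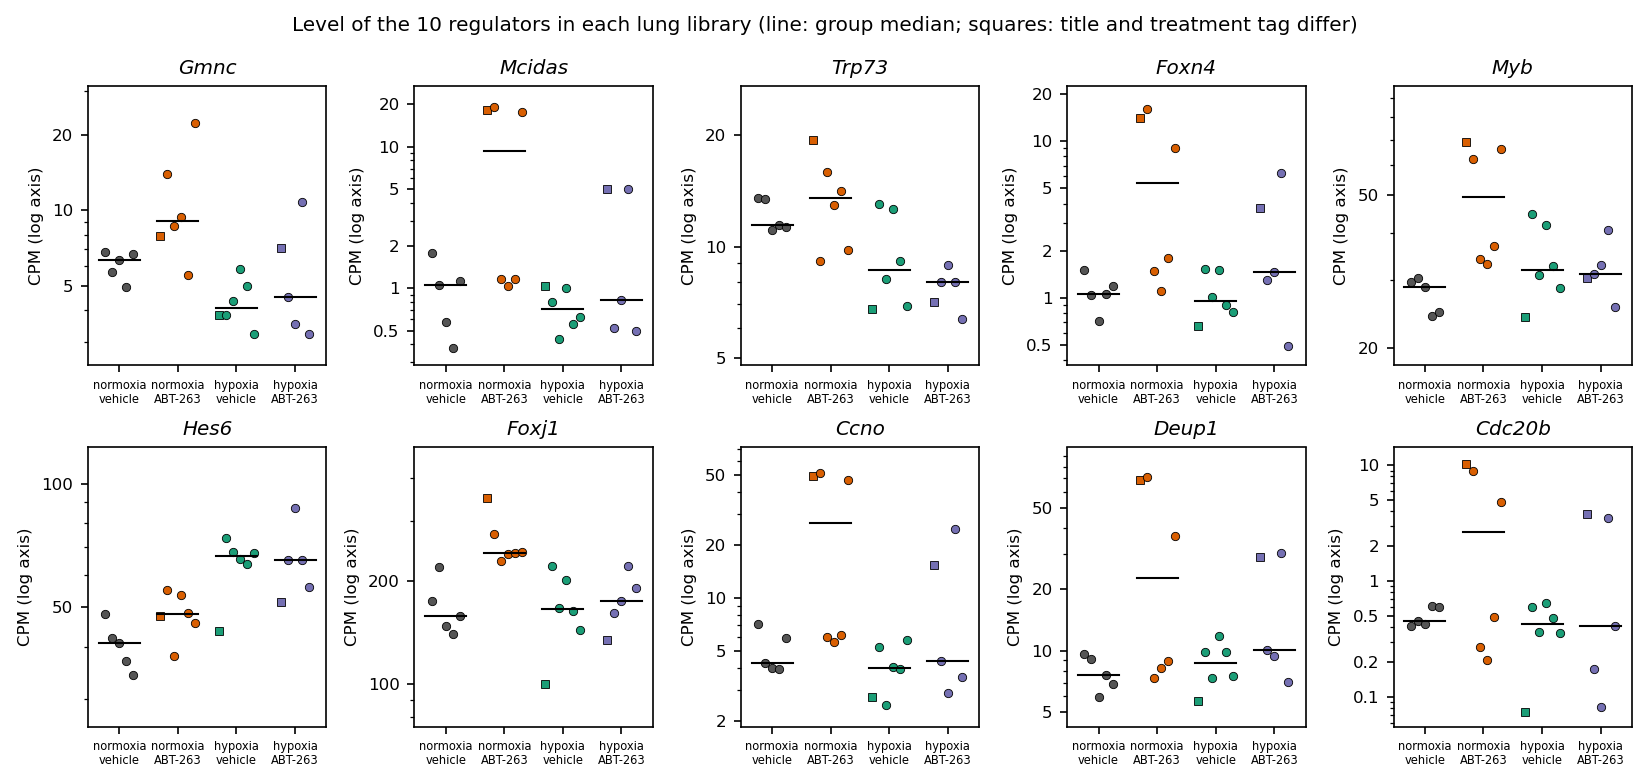
CPM of the 10 regulators in each of the 22 libraries on log axes, by group, with the group median as a line and squares for the 3 libraries whose title and treatment tag differ. Mcidas, Foxn4, Ccno, Deup1 and Cdc20b split the ABT-263 groups into high and low libraries, Hes6 is higher in most hypoxia libraries, and Trp73 shows no such split.

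Gmnc encodes the coactivator at the top of the known cascade. Its level was 6.85, 5.69, 6.36, 4.93 and 6.69 CPM in normoxia vehicle and 7.91, 14.0, 8.69, 9.39, 5.51 and 22.4 CPM in normoxia ABT-263 (replicates 1 to 6). In hypoxia vehicle it ran from 3.23 to 5.84 CPM with a median of 4.09, and in hypoxia ABT-263 it was 7.07, 4.52, 3.52, 10.8 and 3.22 CPM. Replicates 2 and 6 of normoxia ABT-263 and replicate 4 of hypoxia ABT-263 were the 3 highest of all libraries, and the groups overlapped.

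Mcidas, the coactivator that acts after Gmnc, was at 1.78, 1.05, 0.571, 0.379 and 1.13 CPM in normoxia vehicle. In normoxia ABT-263 it was at 18.2, 19.2, 1.15, 1.04, 1.15 and 17.5 CPM, so 3 libraries stood above 17 CPM and the other 3 lay inside the control range. In hypoxia vehicle it ran from 0.435 to 1.03 CPM (median 0.710), and in hypoxia ABT-263 it was 5.05, 0.521, 0.818, 5.02 and 0.496 CPM. Mcidas per kb was 1.89 to 5.55 times the level of Gmnc per kb in replicates 6, 2 and 1 of normoxia ABT-263, and 1.72 and 1.12 times in replicates 1 and 4 of hypoxia ABT-263. In every other library Mcidas per kb was below Gmnc per kb, at 0.186 to 0.650 times. Without division by exon length, Mcidas was below Gmnc in replicate 6 of normoxia ABT-263 and in replicates 1 and 4 of hypoxia ABT-263.

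Foxn4, a forkhead factor known to promote multiciliated cell differentiation, followed the same libraries. It was at 14.1, 16.1, 1.49, 1.1, 1.81 and 9.03 CPM in normoxia ABT-263 and at 3.75, 1.30, 1.47, 6.29 and 0.496 CPM in hypoxia ABT-263. The vehicle libraries ran from 0.714 to 1.51 CPM in normoxia and from 0.664 to 1.52 CPM in hypoxia.

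Myb, a factor known from dividing progenitors that also acts early in multiciliated cells, was at 29.7, 30.4, 28.9, 24.3 and 24.9 CPM in normoxia vehicle. All 6 normoxia ABT-263 libraries were above these, at 69.0, 62.2, 34.1, 33.1, 37.0 and 66.0 CPM. The same replicates 1, 2 and 6 were highest, yet replicates 3, 4 and 5 also exceeded every control. In hypoxia ABT-263 Myb was at 30.4, 31.1, 32.9, 40.7 and 25.6 CPM, inside the hypoxia vehicle range of 24.0 to 44.8 CPM.

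Foxj1, the factor that drives motile cilia genes, was at 175, 220, 148, 140 and 159 CPM in normoxia vehicle and at 351, 274, 229, 240, 241 and 243 CPM in normoxia ABT-263. These groups did not overlap. In hypoxia vehicle it ran from 100 to 221 CPM (median 166) and in hypoxia ABT-263 from 134 to 221 CPM, which overlapped with each other and with the control. Mcidas amounted to 51.9, 70.1 and 72.2 CPM per 1000 CPM of Foxj1 in replicates 1, 2 and 6 of normoxia ABT-263 and to 37.6 and 22.8 in replicates 1 and 4 of hypoxia ABT-263. Across the other 17 libraries it amounted to 2.59 to 10.3.

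Trp73 encodes p73, a p53 relative that acts upstream of Foxj1 in airway cells. It was at 19.4, 9.13, 15.9, 13.0, 14.1 and 9.77 CPM in normoxia ABT-263, against 11.1 to 13.6 CPM in normoxia vehicle. Replicates 2 and 6, where Mcidas was high, were here the lowest of the group, while replicate 1, also high in Mcidas, was the highest. In hypoxia Trp73 ran from 6.78 to 13.0 CPM with vehicle and from 6.36 to 8.92 CPM with ABT-263.

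Hes6, a Hes family member that counteracts the Notch effector Hes1, followed oxygen rather than those libraries. It was at 48.2, 42.3, 41.0, 37.0 and 34.2 CPM in normoxia vehicle, and at 43.7, 73.8, 68.1, 65.6, 63.9 and 67.7 CPM in hypoxia vehicle. The last 5 of these exceeded every control, and the first, a library with conflicting labels, lay inside the control range. Hes6 ran from 38.1 to 55.2 CPM in normoxia ABT-263 and from 51.6 to 87.4 CPM in hypoxia ABT-263.

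Ccno encodes a cyclin-like protein needed for mass centriole formation. It was at 7.06, 4.27, 4.0, 3.95 and 5.90 CPM in normoxia vehicle and at 49.2, 51.2, 5.97, 5.59, 6.17 and 46.9 CPM in normoxia ABT-263. Hypoxia vehicle libraries ran from 2.46 to 5.74 CPM, and hypoxia ABT-263 libraries were at 15.3, 4.35, 2.86, 24.5 and 3.55 CPM. The 3 high normoxia libraries thus lay between 46.9 and 51.2 CPM, above both high hypoxia libraries.

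Deup1, the core protein of the deuterosome, was at 68.8, 70.8, 7.40, 8.28, 8.96 and 36.5 CPM in normoxia ABT-263 and at 28.8, 10.1, 9.41, 30.2 and 7.02 CPM in hypoxia ABT-263. Vehicle libraries ran from 5.93 to 9.66 CPM in normoxia and from 5.68 to 11.8 CPM in hypoxia. The ratio of Deup1 to Ccno CPM stayed between 0.777 and 3.29 over all 22 libraries, with the lowest value in replicate 6 of normoxia ABT-263.

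Cdc20b, a relative of the mitotic activator Cdc20 that takes part in releasing centrioles from deuterosomes, was at 10.2, 8.89, 0.272, 0.207, 0.493 and 4.78 CPM in normoxia ABT-263 and at 3.82, 0.174, 0.0818, 3.54 and 0.413 CPM in hypoxia ABT-263. Vehicle libraries ran from 0.411 to 0.607 CPM in normoxia and from 0.0737 to 0.641 CPM in hypoxia. The lowest hypoxia values, 0.0737 CPM (vehicle) and 0.0818 CPM (ABT-263), each rest on 1 expected count, and the lowest normoxia ABT-263 value on 3. Cdc20b overlaps Gpx8 on the other strand, and the strand setting of the counting was not given in the sources used here. Gpx8 was at 108 to 140 CPM in normoxia ABT-263 with no rise in replicates 1, 2 and 6 (108, 120 and 115 CPM).

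**Figure D2:**
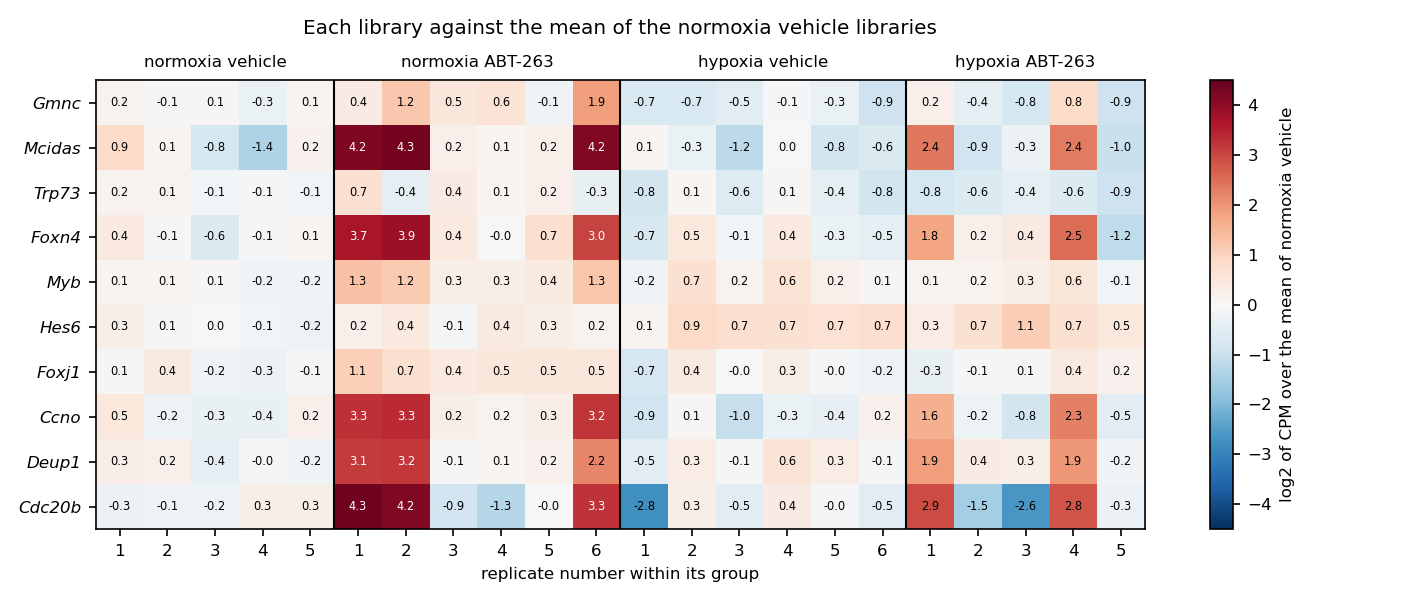
Log2 of each library's CPM over the mean of the 5 normoxia vehicle libraries, for the 10 regulators (rows) in 22 libraries (columns, by group and replicate number). Replicates 1, 2 and 6 of normoxia ABT-263 and replicates 1 and 4 of hypoxia ABT-263 are red for Mcidas, Foxn4, Ccno, Deup1 and Cdc20b, and Hes6 is pale red in the hypoxia columns.

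Hypoxia was first compared with normoxia in vehicle mice, which holds none of the libraries titled ABT-263. Which comparisons were known when the regulators were chosen is not stated, so these values are a description too. Hes6 rose, by 0.65 ± 0.13 (log2 fold change ± SE), with an adjusted p of 0.000819 from edgeR's quasi-likelihood test with Benjamini-Hochberg adjustment over all genes. It was the 1 regulator of 10 that passed the threshold of 0.05, against 26.3% of all genes tested. Over the alternative settings its log2 fold change was 0.60 to 0.75 (adjusted p 3.66e-05 to 0.00441), and without the libraries with conflicting labels it was 0.74.

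The other regulators did not pass in that comparison. Trp73 differed by -0.36 ± 0.18 (adjusted p = 0.144), Gmnc by -0.49 ± 0.32 (adjusted p = 0.284), Myb by 0.30 ± 0.20 (adjusted p = 0.305) and Foxj1 by -0.02 ± 0.17 (adjusted p = 0.955) in the same edgeR fit. Mcidas (-0.41 ± 1.06), Foxn4 (-0.04 ± 0.80), Ccno (-0.33 ± 0.74), Deup1 (0.15 ± 0.62) and Cdc20b (-0.23 ± 1.24) had wide errors, because the fit shares 1 estimate of each gene's spread with the ABT-263 groups. In a fit of the 2 vehicle groups alone the error of Mcidas was 0.35 and that of Ccno 0.22. There Gmnc fell by 0.48 on the log2 scale (adjusted p = 0.0278 by edgeR), and with treatment read from the tags Trp73 fell by 0.49 (adjusted p = 0.0335 by edgeR). The levels of the 2 vehicle groups overlapped for all 10 regulators, while 14% of all genes tested had groups that did not overlap.

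The comparisons that use ABT-263 libraries are also given as a description, since the high levels in some of those libraries were known when the regulators were chosen. In normoxia all 10 regulators had a higher fitted level with ABT-263. The log2 fold change was 3.28 ± 0.88 for Mcidas, 3.03 ± 0.99 for Cdc20b, 2.71 ± 0.71 for Foxn4, 2.44 ± 0.69 for Ccno and 2.09 ± 0.60 for Deup1. It was 0.89 ± 0.31 for Gmnc, 0.86 ± 0.20 for Myb and 0.64 ± 0.17 for Foxj1, and 0.25 ± 0.13 for Hes6 and 0.16 ± 0.18 for Trp73. The median of the 10 was 1.49, beside 0.01 over all genes tested. By edgeR 0 of 10 passed the threshold, against 0.535% of all genes tested. Of the 10, 8 had an unadjusted p under 0.05, as had 13.0% of all genes tested. DESeq2 called 6 of the 10, and 331 of 15528 genes overall. Myb and Foxj1 were the 2 regulators whose groups did not overlap, which held for 2.12% of all genes tested.

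The labels of 3 libraries bear on these values. Without those libraries the log2 fold change in normoxia was 2.99 ± 0.91 for Mcidas, 2.39 ± 0.74 for Foxn4, 2.18 ± 0.74 for Ccno and 1.73 ± 0.60 for Deup1, and Cdc20b was no longer among the genes tested. With treatment read from the tags it was 1.03 ± 1.0 for Mcidas, 0.81 ± 0.85 for Foxn4, 0.88 ± 0.83 for Ccno, 0.53 ± 0.74 for Deup1 and 0.42 ± 1.07 for Cdc20b. Myb then stood at 0.42 ± 0.26 and Foxj1 at 0.30 ± 0.21. Gmnc was at 0.96 and 0.90 in these settings, but at 0.56 without normoxia ABT-263 replicate 6 and at 0.36 ± 0.26 without replicates 2 and 6.

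In hypoxia the fitted differences between ABT-263 and vehicle were smaller. They were 1.95 ± 1.05 for Cdc20b, 1.71 ± 0.95 for Mcidas, 1.35 ± 0.71 for Ccno, 1.33 ± 0.73 for Foxn4 and 0.98 ± 0.59 for Deup1. Those of Gmnc (0.43 ± 0.33), Foxj1 (0.09 ± 0.17), Hes6 (0.03 ± 0.13), Myb (-0.07 ± 0.20) and Trp73 (-0.31 ± 0.19) lay nearer to 0. Without hypoxia ABT-263 replicate 4 Ccno stood at 0.72, Foxn4 at 0.73 and Gmnc at 0.08. By edgeR 0 of 10 passed, against 0.301% of all genes tested, 0 of 10 had an unadjusted p under 0.05, and DESeq2 called 0. Of all genes tested 14.3% had an unadjusted p under 0.05, and DESeq2 called 236 of 15528. All 10 had overlapping groups, and 1.98% of all genes tested did not overlap. With treatment read from the tags Mcidas stood at 0.20 ± 1.23, Ccno at 0.33, Foxn4 at 0.39, Deup1 at 0.00 and Cdc20b at -0.23 ± 1.31.

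**Figure D3:**
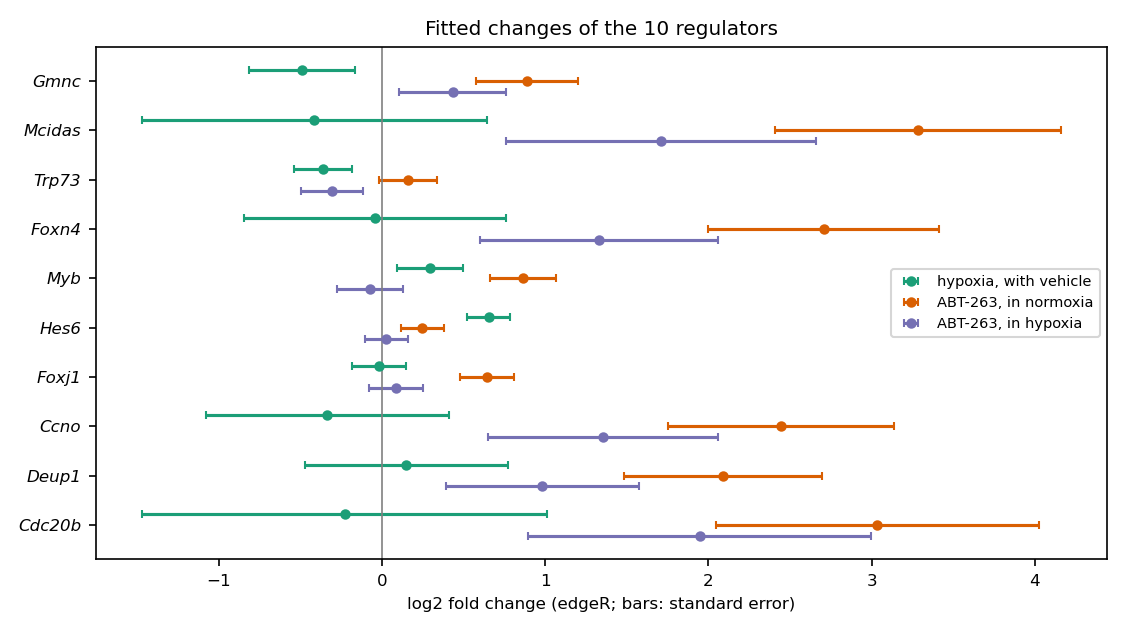
Fitted log2 fold change of each regulator (points, with bars of 1 SE) for hypoxia with vehicle, ABT-263 in normoxia and ABT-263 in hypoxia. Mcidas, Cdc20b, Foxn4, Ccno and Deup1 have the highest points for ABT-263 in normoxia (3.28 to 2.09) and wide bars in every comparison, while Hes6 has its highest point for hypoxia (0.65).

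The difference between both ABT-263 effects, the interaction with oxygen, was below 0 for all 10 regulators. By edgeR 0 of 10 passed, and 0% of all genes tested did. Unadjusted p-values under 0.05 were found for 2 regulators, Myb (-0.94 ± 0.29) and Foxj1 (-0.56 ± 0.24), and for 1546 of all genes. DESeq2 called 0 regulators and 17 genes. The smaller values in hypoxia are therefore not shown to differ from those in normoxia.

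Averaged over both oxygen conditions, ABT-263 libraries had higher fitted levels of Mcidas (2.50 ± 0.64), Cdc20b (2.49 ± 0.72), Foxn4 (2.02 ± 0.51), Ccno (1.90 ± 0.49) and Deup1 (1.54 ± 0.42). Mcidas, Foxn4 and Ccno passed, 3 of 10, against 2.54% of all genes tested. That count was 0 without the libraries with conflicting labels, 0 with the tags, 0 without normoxia ABT-263 replicates 2 and 6, and 7 with DESeq2. In the same order of settings 285 of 16722, 0 of 16638, 290 of 16726 and 765 of 16744 genes overall were called. Leaving out 1 library at a time gave 0 to 5 regulators, with 0 for 15 of the 22 libraries.

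Hypoxia was also compared with normoxia among ABT-263 mice. Here 5 of 10 regulators passed, against 39.2% of all genes tested. Hes6 was higher (0.44 ± 0.13), and Gmnc (-0.94 ± 0.31), Trp73 (-0.83 ± 0.19), Myb (-0.64 ± 0.20) and Foxj1 (-0.57 ± 0.17) were lower. Mcidas differed by -1.99 ± 0.79, Foxn4 and Ccno by -1.42 each, Cdc20b by -1.32 and Deup1 by -0.96, and none of these passed. Trp73 and Foxj1 had groups that did not overlap, as did 17.6% of all genes tested. Only Hes6, Gmnc and Trp73 passed with the tags, and leaving out 1 library gave 3 to 8 regulators: 3 without hypoxia ABT-263 replicate 3 or 5, and 8 without normoxia or hypoxia ABT-263 replicate 4.

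The partners of the coactivators and later factors were followed through 12 genes, of which 11 were tested. In hypoxia with vehicle 2 rose and 3 fell, with a median log2 fold change of -0.10 (all genes, -0.00), while 26.3% of all genes tested passed. Tfdp2, a DP partner, rose by 0.30 ± 0.08 and E2f5 by 0.24 ± 0.09, while Rfx2, an activator of cilia genes, differed by -0.32 ± 0.10 and the ankyrin Ank3 by -0.38 ± 0.09. For ABT-263 in normoxia edgeR called 0 of the 11, 3 had an unadjusted p under 0.05, and DESeq2 called 0. Their fold changes lay between -0.05 and 0.26, far below that of Mcidas. In that comparison 0.535% of all genes tested passed and 13.0% had an unadjusted p under 0.05.

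Centriole assembly proteins are used by dividing cells as well as by multiciliated cells, and all 26 listed genes were tested. For ABT-263 in normoxia 24 of 26 were above 0, the median was 0.21 and the highest value was 2.56. By edgeR 0 passed, 11 had an unadjusted p under 0.05, and DESeq2 called 6. Of all genes tested 0.535% passed and 13.0% had an unadjusted p under 0.05, and DESeq2 called 331 of 15528. Averaged over oxygen conditions, where 2.54% of all genes tested passed, 4 of 26 did, all higher: Stil (1.94 ± 0.51), the kinase Plk4 that starts centriole duplication (1.21 ± 0.32), the cartwheel protein Sass6 (0.65 ± 0.18) and the centriolar satellite protein Pcm1 (0.28 ± 0.06). Without the libraries with conflicting labels 1 of 26 passed, beside 285 of 16722 genes overall. Stil, which binds Plk4, was at 16.1, 14.9, 0.950, 0.621, 1.89 and 9.37 CPM in normoxia ABT-263 and at 6.64, 2.0, 2.37, 8.27 and 2.15 CPM in hypoxia ABT-263. Stil was thus high in the same 5 libraries as Mcidas. Summed over all 26 genes, the level was 1033, 1091, 852, 841, 886 and 882 CPM in normoxia ABT-263, with replicate 6 below replicate 5. In hypoxia ABT-263 the sum was 881, 920, 904, 863 and 860 CPM, with replicates 1 and 4 below replicates 2 and 3. The list as a whole therefore did not follow all 5 libraries with high Mcidas.

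Genes of the axoneme and of mature multiciliated cells did not follow those libraries. Their list held 56 genes, of which 54 were tested, and Dnai1 and Dnai2 were not analysed here. The summed level was 3682, 3476, 3541, 3831, 4213 and 2817 CPM in normoxia ABT-263, against 2942 to 3616 CPM in normoxia vehicle. Replicate 6, where Mcidas was at 17.5 CPM, had the lowest sum of that group. In hypoxia ABT-263 the sum was 2579, 3813, 3721, 2872 and 2762 CPM, so that replicates 1 and 4 lay below replicates 2 and 3. Replicate 5, where Mcidas was low, lay between replicates 1 and 4.

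By edgeR 0 of the 54 axoneme and mature cell genes passed for ABT-263 in normoxia (median 0.20, 47 above 0), 11 had an unadjusted p under 0.05, and DESeq2 called 2. Of all genes tested 53.7% were above 0, 0.535% passed and 13.0% had an unadjusted p under 0.05. For ABT-263 in hypoxia 0 of 54 were above 0 (median -0.29), and 1, the dynein docking gene Ccdc114 (-0.46 ± 0.10), passed. There 48.1% of all genes tested were above 0 and 0.301% passed. In hypoxia with vehicle 8 of 54 rose and 0 fell, with a median of 0.16, while 26.3% of all genes tested passed in that comparison. The 4 with the smallest p were the tubulin Tubb4b (0.56 ± 0.12), the radial spoke gene Rsph9 (0.48 ± 0.11), Pifo (0.66 ± 0.16) and Tmem212 (0.64 ± 0.21). Without the libraries with conflicting labels 13 of 54 rose, while 3970 of 16722 genes overall passed in either direction. Between hypoxia and normoxia with ABT-263 23 of 54 passed, all lower, against 39.2% of all genes tested in either direction, among them Drc1 (-0.73 ± 0.14) and Ccdc65 (-0.80 ± 0.16) of the nexin-dynein complex. That comparison shares the normoxia ABT-263 libraries with those above.

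**Figure D4:**
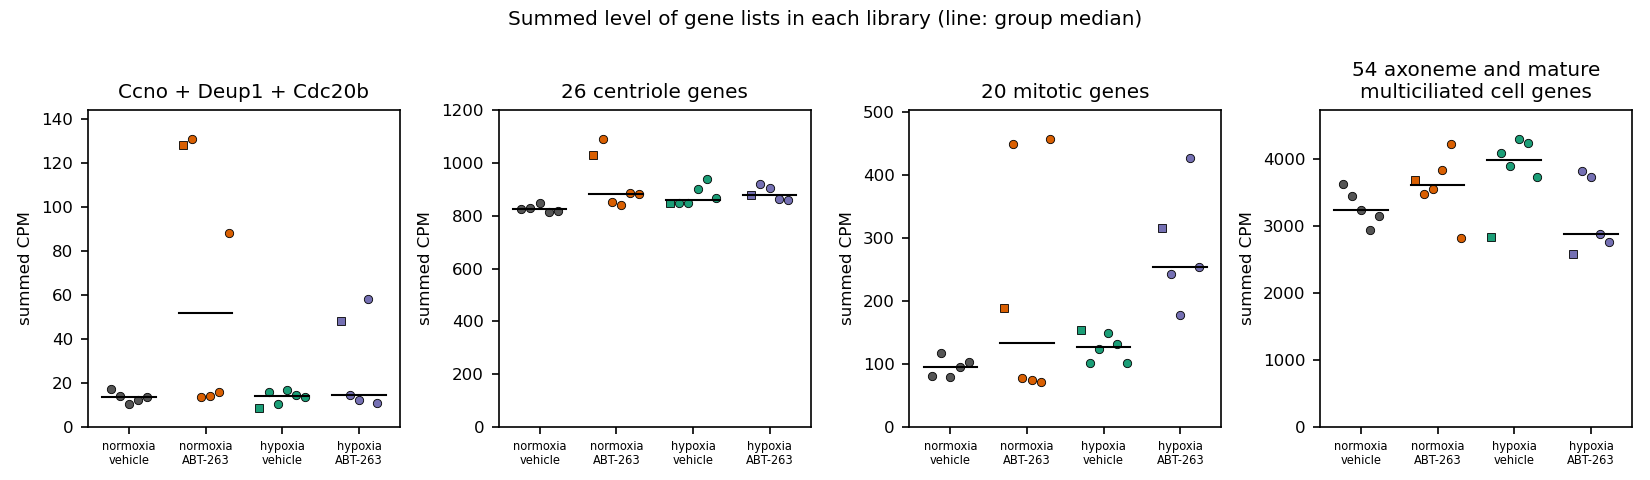
Summed CPM of 4 gene lists in each library, by group, with the group median as a line, squares for the 3 libraries with conflicting labels, and axes that start at 0. Ccno, Deup1 and Cdc20b together reach 47.9 to 131 CPM in 5 ABT-263 libraries and stay at 8.48 to 17.1 CPM in the others, whereas the 54 axoneme and mature cell genes show no such split.

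Of 12 listed Notch genes 11 were tested, and in hypoxia with vehicle 3 rose, 4 fell and 4 did not pass, while 26.3% of all genes tested passed. The ligand Dll4 differed by -1.94 ± 0.10 and the effector Hey1 by -1.12 ± 0.13, while the ligand Jag2 (0.74 ± 0.10) and the receptor Notch3 (0.54 ± 0.10) rose. Dll4 and Hey1 are known from endothelium as well as epithelium, which whole lung does not separate. For ABT-263 in normoxia edgeR called 0 of 11, 1 had an unadjusted p under 0.05, and DESeq2 called 0. In that comparison 0.535% of all genes tested passed and 13.0% had an unadjusted p under 0.05.

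Cell division genes moved with some of the same libraries. The summed level of 20 mitotic genes was 189, 448, 77.3, 74.9, 71.5 and 456 CPM in normoxia ABT-263, against 79.3 to 116 CPM in normoxia vehicle. Replicates 1, 2 and 6 were again the highest, but replicate 1, with one of the highest Mcidas levels, had less than replicates 2 and 6. In hypoxia ABT-263 the sum was 315, 242, 177, 427 and 254 CPM, all above the 101 to 153 CPM of hypoxia vehicle, including the libraries with low Mcidas. The sum of 20 S phase genes was 553 and 487 CPM in replicates 2 and 6 of normoxia ABT-263 and 261 to 288 CPM in the other 4. It lay between 248 and 316 CPM in normoxia vehicle. In hypoxia the S phase sum was 249 to 282 CPM with vehicle and 300 to 429 CPM with ABT-263, and these ranges did not overlap. By edgeR 0 of the 20 mitotic genes passed for ABT-263 in normoxia (median 1.09), 16 had an unadjusted p under 0.05, and DESeq2 called 5. Of all genes tested 0.535% passed and 13.0% had an unadjusted p under 0.05, and DESeq2 called 331 of 15528. For ABT-263 in hypoxia 0 of the 20 mitotic genes passed by edgeR (median 1.21), 19 had an unadjusted p under 0.05, and DESeq2 called 1. Of the 20 S phase genes 8 had an unadjusted p under 0.05 in normoxia and 12 in hypoxia, and 0 passed in either. In hypoxia 0.301% of all genes tested passed, 14.3% had an unadjusted p under 0.05, and DESeq2 called 236 of 15528. Averaged over oxygen conditions 9 of 20 mitotic genes and 3 of 20 S phase genes passed, all higher, against 2.54% of all genes tested. Without the libraries with conflicting labels 1 mitotic gene did, beside 285 of 16722 genes overall. The part of cell division in the levels of the regulators was not tested.

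Markers of other cells in a lung sample, epithelial ones first, were read in the same libraries. The 10 measured multiciliated cell markers summed to 1708, 1597, 1542, 1773, 1892 and 1330 CPM in normoxia ABT-263. They summed to 1309 to 1727 CPM in normoxia vehicle, 1210 to 1846 CPM in hypoxia vehicle and 1184 to 1780 CPM in hypoxia ABT-263. Foxj1, itself 1 of the 10 regulators, is on this list, so the sum is not independent of them. Of the normoxia ABT-263 sums Foxj1 alone made up 351, 274, 229, 240, 241 and 243 CPM. In normoxia vehicle it made up 140 to 220 CPM. Club and secretory cell markers (10 of 10) summed to 83062, 57637, 92173, 102181, 100596 and 65742 CPM in normoxia ABT-263, with replicates 2 and 6 below every control (74587 to 107654 CPM), and to 51344 to 81297 CPM in hypoxia vehicle and 42919 to 59648 CPM in hypoxia ABT-263. Airway basal cell markers (7 of 7) summed to 3.93, 9.53, 3.06, 5.38, 5.26 and 12.3 CPM there, against 4.63 to 5.55 CPM in the control, and replicates 2 and 6 were highest of that group. In hypoxia they ran from 3.50 to 26.2 CPM with vehicle and from 3.52 to 10.8 CPM with ABT-263. Of 7 markers of squamous epithelium of the oesophagus, Dsg3, Krt6a, Krtdap and Sprr3 were at 0 in all 22 libraries, and the sum over the list, which comes from the other 3, was 9.64 to 23.4 CPM in normoxia vehicle, 11.3 to 21.1 CPM in normoxia ABT-263, 10.4 to 21.95 CPM in hypoxia vehicle and 9.69 to 16.1 CPM in hypoxia ABT-263. Pan-epithelial markers (7 of 7) summed to 1234 to 1425 CPM in normoxia ABT-263, all above the 987 to 1228 CPM of the control, and to 699 to 1072 CPM and 756 to 1023 CPM in hypoxia with vehicle and with ABT-263. The 8 neuroendocrine cell markers, a cell type in which Hes6 is also known, summed to 21.9 to 25.8 CPM in normoxia vehicle and 22.9 to 29.5 CPM in hypoxia vehicle. With ABT-263 they summed to 22.7 to 26.5 CPM in normoxia and 20.5 to 28.0 CPM in hypoxia. In hypoxia with vehicle 6 of them were tested, of which 2 were above 0 (median -0.40). Of these 6, 1 rose and 1 fell, while 26.3% of all genes tested passed. The part of these cells in the levels of the regulators was not tested.

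Markers of blood and immune cells differed between the groups in which the regulators were compared. For ABT-263 in normoxia 5 of 8 T cell markers and 6 of 8 B cell markers fell and 1 of 7 megakaryocyte markers rose, against 0.535% of all genes tested. T cell markers summed to 75.5 to 114 CPM in normoxia vehicle, 52.1 to 75.5 CPM in normoxia ABT-263, 57.2 to 66.4 CPM in hypoxia vehicle and 42.6 to 62.3 CPM in hypoxia ABT-263. B cell markers summed to 310 to 540 CPM, 225 to 318 CPM, 210 to 289 CPM and 116 to 155 CPM in the same order of groups. Megakaryocyte markers summed to 71.3 to 134 CPM, 102 to 199 CPM, 49.0 to 73.2 CPM and 43.9 to 78.1 CPM.

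Myb is also known from blood progenitors. For ABT-263 in normoxia 13.0% of all genes tested had an unadjusted p under 0.05. Of 7 markers of haematopoietic progenitors 0 passed in that comparison by edgeR, 3 had an unadjusted p under 0.05 and DESeq2 called 0. Their sum was 527.7 to 649 CPM in normoxia vehicle, 496 to 628 CPM in normoxia ABT-263, 585 to 690 CPM in hypoxia vehicle and 677 to 753 CPM in hypoxia ABT-263. Of the 8 thymocyte and lymphoid precursor markers 3 were tested and 0 passed by edgeR, 3 had an unadjusted p under 0.05 and DESeq2 called 1. Their sum was 25.6 to 29.4 CPM in normoxia vehicle and 17.0 to 22.2 CPM in normoxia ABT-263. Of 8 granulocyte precursor markers 3 were tested, all above 0 (median 0.65), 0 passed by edgeR and 1 had an unadjusted p under 0.05. That list summed to 1.57 to 2.39 CPM and 1.25 to 5.77 CPM in these groups. Of 8 erythroid precursor markers 7 were tested, 3 of them above 0 (median -0.01), and 0 passed. Their sum was 186 to 216 CPM with vehicle and 184 to 275 CPM with ABT-263, where replicates 2 and 6 were highest. The part of blood and immune cells in the levels of the regulators was not tested.

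Across the 22 libraries, after the mean of each group was taken off, the regulators differed in how closely they tracked each other. Spearman's rho of log2 CPM was 0.906 between Mcidas and Ccno, 0.864 between Mcidas and Foxn4, 0.886 between Mcidas and Deup1 and 0.800 between Mcidas and Cdc20b. It was 0.643 with Gmnc, 0.711 with Myb and 0.322 with Foxj1, and -0.139 with Trp73 and -0.020 with Hes6. These values describe libraries that fall into high and low sets and share depth and composition, so no p is given.

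Outside the chosen genes, the 5 most like Mcidas by that measure were Ybx2 (rho 0.948), Stil (0.913), H1fx (0.896), Sgo2a (0.889) and Ccdc34 (0.877). For Ccno they were Itih2 (0.920), Ccna1 (0.912), Asrgl1 (0.875), Ybx2 (0.870) and H1fx (0.862). Ybx2 was at 4.49, 7.29, 0.950, 1.04, 1.32 and 6.27 CPM in normoxia ABT-263 and at 0.911 to 1.85 CPM in normoxia vehicle. Ccna1 was at 18.7, 37.2, 2.04, 1.79, 3.29 and 6.27 CPM in normoxia ABT-263 and at 1.75 to 3.18 CPM in normoxia vehicle.

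The genes most like Myb were Mdm1 (0.843), Inava (0.823), Crocc2 (0.814), Xk (0.806) and 2010300C02Rik (0.801). Crocc2, a relative of the rootletin gene, was at 59.9, 54.1, 13.3, 14.6, 20.6 and 24.3 CPM in normoxia ABT-263 and at 9.79 to 14.4 CPM in normoxia vehicle. The genes most like Foxj1 were Ccdc151 (0.834), Sptlc3 (0.831), Nek2 (0.825), Zbtb33 (0.798) and Ift80 (0.793). Ccdc151 was also on the list of axoneme genes.

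The locus of the 3 neighbouring regulators lies on chromosome 13 of GRCm38. Ccno (ENSMUSG00000042417) spans 112987802 to 112990777, Mcidas (ENSMUSG00000074651) 112993845 to 113000394 and Cdc20b (ENSMUSG00000078926) 113035111 to 113091195. Between Ccno and Mcidas lie 3067 bases, and between Mcidas and Cdc20b 34716 bases. Of the 15 protein-coding genes within 500 kb of this span 12 were tested, and Il31ra, Ddx4 and Gzmk did not pass the filter.

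Genes next to the trio did not share its values. For ABT-263 in normoxia the helicase gene Dhx29, upstream of Ccno, was at 0.22 ± 0.10 and Gpx8, inside Cdc20b, at -0.04 ± 0.09. Gzma, which encodes granzyme A of cytotoxic lymphocytes and is the next gene after Cdc20b, was at -0.84 ± 0.24. Mtrex (0.09), Plpp1 (0.02), Slc38a9 (-0.12), Il6st (0.15), Esm1 (-0.13) and BC067074 (-0.01) lay within 0.15 of 0. Averaged over oxygen conditions Gzma fell by 0.68 on the log2 scale (adjusted p = 0.0432 by edgeR). In hypoxia with vehicle the endothelial gene Esm1 fell by 1.80 on the log2 scale, Il6st by 0.42 and BC067074 by 0.37, and Plpp1 (0.39 ± 0.10) and Gpx8 (0.32 ± 0.09) rose.

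**Figure D5:**
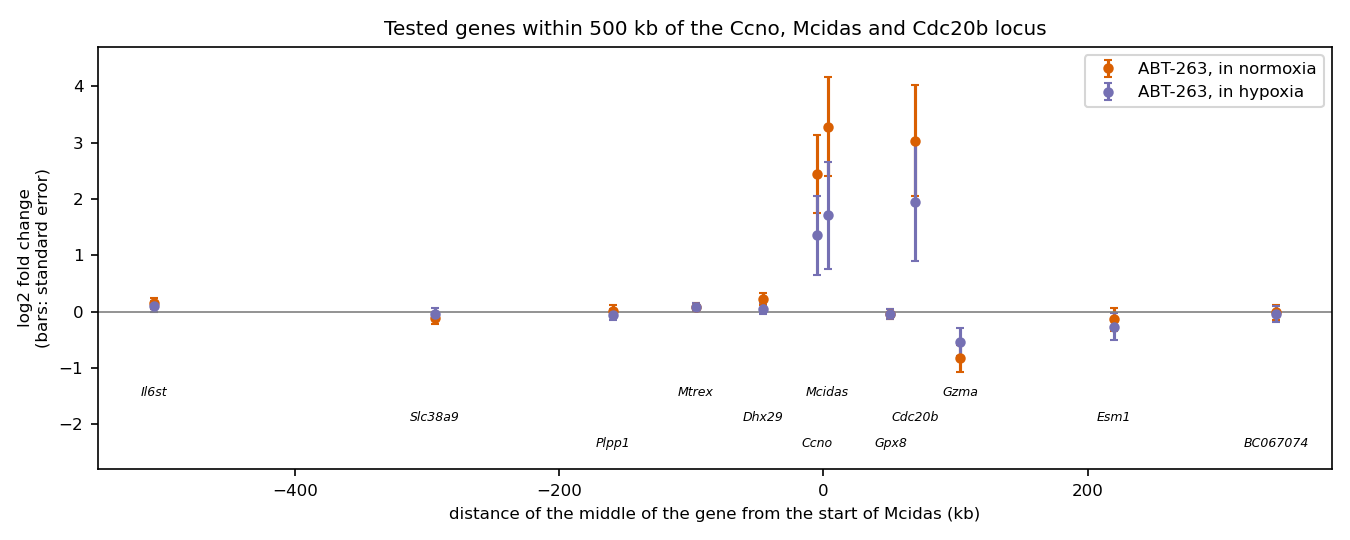
Fitted log2 fold change (points, with bars of 1 SE) of the 12 tested genes around Ccno, Mcidas and Cdc20b against the distance of each gene's middle from the start of Mcidas, for ABT-263 in normoxia and in hypoxia. Ccno, Mcidas and Cdc20b stand at 2.44, 3.28 and 3.03 in normoxia, and the other 9 genes lie between -0.84 and 0.22.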

How the data were processed

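The labels name total RNA from whole lung, a stranded TruSeq mRNA kit and a NextSeq 500. The deposited table holds expected counts per gene, and the submitters' processing notes name Trimmomatic, STAR, RSEM and GRCm38. Their versions and the strand setting are not given in the sources used here. Of 54532 gene identifiers, 54409 were in GENCODE M21 (GRCm38), which gave coordinates and merged exon lengths.

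Groups were taken from the sample titles. No label numbers the replicates, so the numbers only name libraries. Within groups, chi-square per gene between 2 libraries was 5.03 to 37.6, so no library was merged with another. The expected counts were rounded and then filtered with filterByExpr (minimum count 10), which left 16638 genes. All 4 groups entered a single model in edgeR 4.0.16 under R 4.3.3 (TMM factors, robust quasi-likelihood F test, two-sided), with Benjamini-Hochberg adjustment over all genes and a threshold of 0.05. Dividing the size of a log2 fold change by the root of its F gave the standard error. The fit was tested on simulated data.

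The genes and lists were chosen with earlier results of these data known. Named genes are the 10 regulators, up to 4 genes per list with the smallest p in a comparison described, the 5 tested genes (mean CPM at least 0.5) most like Mcidas, Ccno, Myb or Foxj1 by Spearman's rho of log2 CPM (prior count 2) less the group mean, and the protein-coding genes within 500 kb of the span from Ccno to Cdc20b. Genes whose values are given per library were picked from these after their values were seen. Alternatives were DESeq2 1.42.0, RLE size factors, library totals without TMM, no filter, a floor of 1 CPM in 4 or more libraries, separate fits for each pair of groups, each library left out, normoxia ABT-263 replicates 2 and 6 left out, and the 3 libraries with conflicting labels left out or read by their tags. Figures were drawn with matplotlib 3.10.9.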

Additional observations from a re-analysis of the deposited data

Results flagged for a closer look

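In 2 of the 40 sets made of 1 regulator in 1 group, a single library lay far from the rest by Dixon's test at 95%, and chance gives such a result in about 1 of 20 sets. Hes6 was at 43.7 CPM in hypoxia vehicle replicate 1, the lowest of its group, with the next library at 63.9 CPM. Foxj1 was at 351 CPM in normoxia ABT-263 replicate 1, the highest of its group, with the next library at 274 CPM. Both are libraries whose title and treatment tag disagree, and the part of the labels in these values was not tested. Without the libraries with conflicting labels the log2 fold change of Hes6 in hypoxia with vehicle was 0.74 ± 0.11, and that of Foxj1 with ABT-263 in normoxia was 0.53 ± 0.12.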

How the results depend on the processing

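The call of Hes6 in hypoxia with vehicle held under every alternative run, and 0 regulators were called for ABT-263 in hypoxia or for the interaction under any of them. In hypoxia with vehicle 1 regulator was called, and 2 in a fit of the 2 compared groups and 2 with the tags (leave-one-out, 1 for each of the 22 libraries). For hypoxia with ABT-263 5 were called, but 3 in a fit of the 2 groups, 3 with the tags, 3 without normoxia ABT-263 replicates 2 and 6 together, and 3 to 8 with 1 library left out. For ABT-263 in normoxia 0 were called, but 6 with DESeq2 and 0 to 2 with 1 library left out (2 without hypoxia vehicle replicate 1). For ABT-263 averaged over oxygen conditions 3 were called, but 7 with DESeq2, 1 with library totals without TMM, 0 without the low-count filter, 0 without the 3 libraries with conflicting labels, 0 with the tags, 0 without normoxia ABT-263 replicates 2 and 6, and 0 to 5 with 1 library left out. That count was 5 without normoxia ABT-263 replicate 3, 4 or 5, 1 without hypoxia ABT-263 replicate 1 or 5, and 0 without normoxia ABT-263 replicate 1, 2 or 6, hypoxia ABT-263 replicate 4 or any 1 vehicle library. With the tags, 0 of all 16638 genes were called for ABT-263 against vehicle in normoxia, in hypoxia or averaged. The cause of these changes was not tested. Without normoxia ABT-263 replicates 2 and 6, mitotic genes called for ABT-263 in hypoxia went from 0 to 15 of 20. Calls over all genes in that comparison went from 50 of 16638 to 257 of 16726. No paired analysis was possible because no label numbers the replicates and the numbers used here only name the libraries. Depth limits Cdc20b, Mcidas and Foxn4 most, which rested on as few as 1, 5 and 6 expected counts in a library.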
